A study of Mus musculus with 8 samples.

Results

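Muscle calcium release and reuptake genes are described here in RNA-seq data from mouse undifferentiated pleomorphic sarcoma (UPS), a soft tissue tumour without a clear line of differentiation. The 10 genes were taken by symbol from the table of raw counts, which holds 26667 genes, and all 10 were found: Cacna1s, Ryr1, Ryr3, Casq1, Casq2, Trdn, Jph1, Atp2a1, Sln and Pvalb. They were chosen as genes of excitation-contraction coupling in striated muscle. The study asked what loss of HIF-2α, the hypoxia-inducible factor subunit encoded by Epas1, does to this tumour.

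RNA was sequenced from 8 tumours, 4 from KP mice (Trp53 fl/fl, labelled wild type because Epas1 is intact, KP 5 to KP 8) and 4 from KPH2 mice (the same alleles with Epas1 fl/fl, KPH2 1 to KPH2 4). All mice were on a Mixed 129/C57BL/6 background, of both sexes and 8 weeks of age or older, and all received adenovirus expressing Cre recombinase in the muscle of the right hind limb. Both groups therefore lack Trp53 wherever Cre acted, and deletion of Epas1 in KPH2 mice is limited to the cells the virus reached. Cells of the host that the virus did not reach keep their unrecombined alleles, and the share of recombined cells in each section was not measured here. Each library came from a section of 1 fixed, paraffin-embedded tumour, and nothing in the labels ties tumours to litters or to sex. KPH2 1 is absent from the authors' smaller normalized table of 7 tumours, and the study's methods set aside 1 knockout tumour as an outlier for technical reasons. The main comparison is accordingly KPH2 2, 3 and 4 (n = 3) against KP 5 to 8 (n = 4), with KPH2 1 shown apart and results over all 8 tumours beside it.

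In skeletal muscle an action potential enters the fibre along T-tubules, where the voltage sensor of the L-type calcium channel opens the ryanodine receptor of the adjoining sarcoplasmic reticulum. Calcium leaves this store, binds troponin and starts contraction, and the SERCA pump returns it to the store so that the fibre relaxes. Calsequestrins hold calcium inside the store, junctophilins and triadin keep the release machinery together, and parvalbumin binds calcium in the cytosol of fast fibres. Several components exist in forms typical of fast fibres (Casq1, Atp2a1), of slow or cardiac muscle (Casq2, Atp2a2) or of developing muscle (Ryr3).

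Promoter sequences are shown because these genes shared much of their variation among tumours, and because E-boxes (CANNTG, the binding letters of MyoD-family factors) are a known feature of muscle genes. RefSeq promoters of GRCm38.p6, running from 250 bases before to 50 bases from the transcript start, were matched for 6 of the 10 genes, and Ryr3, Jph1, Trdn and Sln were not matched. The 5 windows below cover the voltage sensor, the main release channel, both calsequestrins and the fast fibre pump, in lower case with each E-box in capitals and written 5′ to 3′ on the strand of the gene. They lie at chr1:136052561-136052860 (Cacna1s, plus strand), chr7:29125102-29125401 (Ryr1, minus strand), chr1:172219846-172220145 (Casq1, minus strand), chr3:102086165-102086464 (Casq2, plus strand) and chr7:126463024-126463323 (Atp2a1, minus strand).
Cacna1s: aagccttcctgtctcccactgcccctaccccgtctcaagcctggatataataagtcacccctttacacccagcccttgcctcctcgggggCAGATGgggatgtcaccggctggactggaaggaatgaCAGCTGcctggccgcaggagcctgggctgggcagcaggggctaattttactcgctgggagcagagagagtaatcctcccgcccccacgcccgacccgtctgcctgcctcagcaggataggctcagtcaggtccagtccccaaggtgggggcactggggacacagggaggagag
Ryr1: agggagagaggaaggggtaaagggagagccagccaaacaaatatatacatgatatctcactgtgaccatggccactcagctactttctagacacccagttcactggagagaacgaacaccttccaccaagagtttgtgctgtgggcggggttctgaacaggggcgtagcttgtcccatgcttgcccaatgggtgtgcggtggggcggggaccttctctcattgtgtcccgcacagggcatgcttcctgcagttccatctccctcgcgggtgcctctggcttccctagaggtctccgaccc
Casq1: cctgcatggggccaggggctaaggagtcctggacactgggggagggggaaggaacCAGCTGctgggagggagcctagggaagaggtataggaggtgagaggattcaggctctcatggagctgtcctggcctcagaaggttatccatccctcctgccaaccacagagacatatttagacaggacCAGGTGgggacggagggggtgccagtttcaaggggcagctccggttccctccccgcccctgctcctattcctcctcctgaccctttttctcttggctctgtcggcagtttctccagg
Casq2: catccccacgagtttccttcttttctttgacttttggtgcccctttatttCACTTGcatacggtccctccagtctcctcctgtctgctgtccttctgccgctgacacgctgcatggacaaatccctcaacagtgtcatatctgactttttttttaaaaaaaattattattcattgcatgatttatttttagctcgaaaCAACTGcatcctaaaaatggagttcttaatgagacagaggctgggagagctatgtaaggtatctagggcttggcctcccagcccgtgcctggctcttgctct
Atp2a1: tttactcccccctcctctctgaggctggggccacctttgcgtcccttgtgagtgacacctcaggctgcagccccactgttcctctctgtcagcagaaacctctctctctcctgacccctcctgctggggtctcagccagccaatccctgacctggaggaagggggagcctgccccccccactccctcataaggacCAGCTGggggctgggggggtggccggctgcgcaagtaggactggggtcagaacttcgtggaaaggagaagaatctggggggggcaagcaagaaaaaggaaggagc

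The E-box letters read the same on both strands, and at least 1 such match occurred in 72.3% of the 32851 RefSeq promoters of this length. The CAGCTG form, itself an E-box, occurred in 16.3% of them, and among the 6 genes it was found in the windows of Atp2a1, Cacna1s and Casq1, with its first base at −55, −123 and −195 from the transcript start. Cacna1s also held CAGATG at −160 and Casq1 held CAGGTG at −67. The Casq2 window held CACTTG at −200 and CAACTG at −52 but no CAGCTG. In the Ryr1 window no E-box was found. Pvalb has a pair of windows in the RefSeq set, of which one held CATGTG at −111 and CATATG at 18 and the other held none. The letters CTA and TAG with any 4 bases between them, a MEF2-type pattern, also read the same on both strands and occurred in 3.69% of promoters. This pattern was not found in any of these windows. Other forms of the MEF2 site were not searched for, so their absence is not shown.

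The deposited counts summed to between 6463221 and 13155510 per tumour, and no pair of libraries agreed within sampling noise. Transcripts of the ribosomal RNA gene Rn45s took 1.08 to 2.79% of the counts in KP and 3.58 to 9.83% in KPH2 tumours, and their part in the results below was not tested. Levels are given as CPM, counts per 1000000 counts of the library size after TMM scaling, which adjusts libraries to a common composition. Epas1, the gene deleted in KPH2 tumours, had 59.2, 83.2, 86.9 and 84.1 CPM in KP 5, 6, 7 and 8, against 53.4, 37.7 and 42.5 CPM in KPH2 2, 3 and 4 and 32.6 CPM in KPH2 1. Every KPH2 tumour lay below every KP tumour. The log2 fold change was −0.81 (standard error (SE) 0.19, Benjamini-Hochberg adjusted p = 0.0742 from the quasi-likelihood test of edgeR).

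Each of the 10 calcium handling genes had a higher mean in KPH2 2 to 4 than in KP tumours, with log2 fold changes between 1.19 (Jph1) and 3.01 (Casq2) and a median of 2.02. Over all 14867 genes tested the median was −0.02, 48.0% had a log2 fold change above 0, and 1.88% had one as large as the median of the 10 genes. An unadjusted p under 0.05 was reached by 10 of 10, where 8.5% of all genes reached it in that direction. The 10 genes were chosen with earlier results of these data known and varied together among tumours, so they are not independent results. In the quasi-likelihood test of edgeR, Benjamini-Hochberg adjusted over all genes tested, none of the 10 passed the threshold of 0.05, with adjusted p from 0.0575 to 0.227, where 1.24% of all genes passed as higher in KPH2 tumours. This count rests on single tumours. Without KPH2 4, the adjusted p was 0.0320 for Ryr1, 0.0294 for Cacna1s, 0.0299 for Casq1 and 0.0232 for Trdn (edgeR), so that 4 passed, where 0.807% of all genes passed as higher. Without KP 6, only Casq2 passed (adjusted p = 0.0484, edgeR), where 0.604% of all genes passed as higher. DESeq2's Wald test on the same 7 tumours called 7 of the 10, all but Jph1, Pvalb and Sln, where it called 3.77% of the genes given an adjusted p as higher. A p above the threshold does not show that a gene had the same level in both groups.

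**Figure D1:**
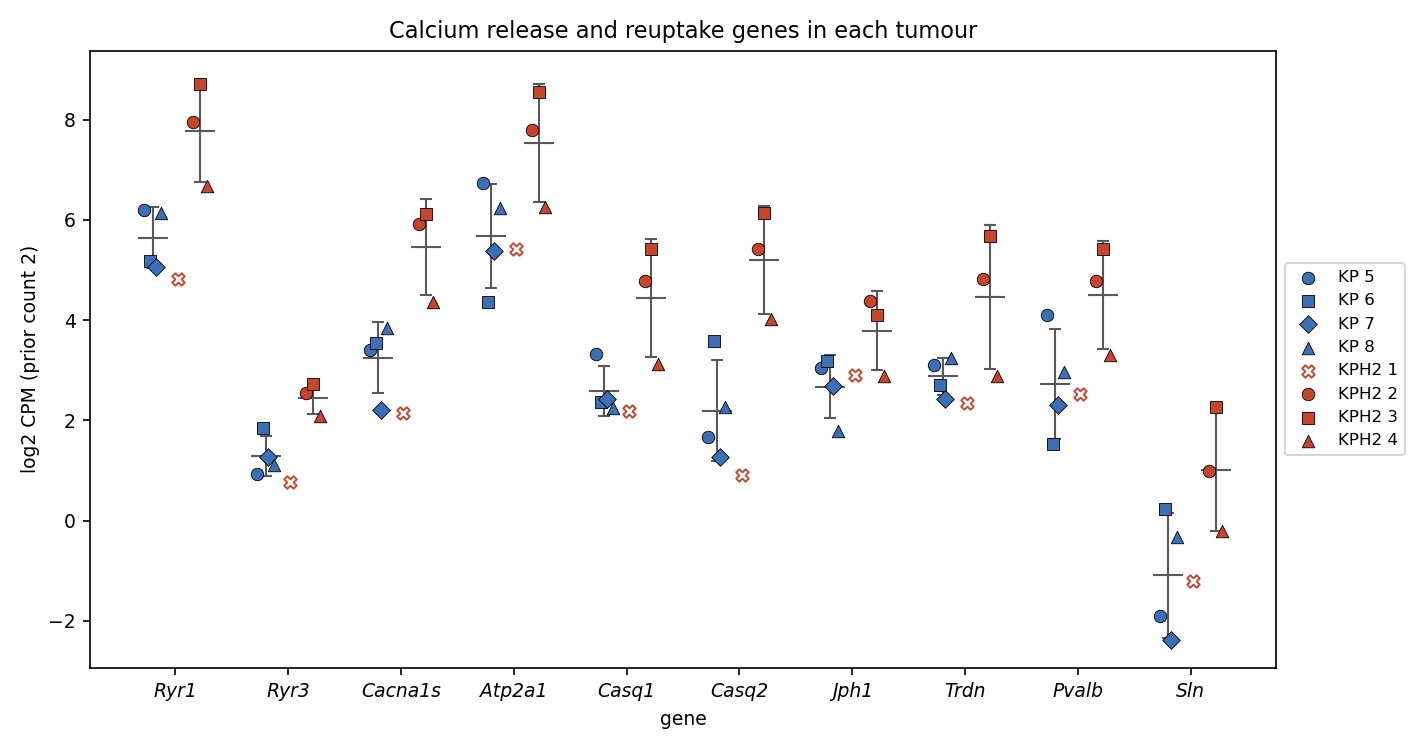
Level of each of the 10 genes in each tumour as log2 CPM (prior count 2), with the mean and SD of KP 5 to 8 (blue, n = 4) and of KPH2 2 to 4 (filled red, n = 3), and KPH2 1 as an open red cross. KPH2 2 and KPH2 3 lie above all 4 KP tumours for 10 of 10 genes, KPH2 4 does so for 4, and KPH2 1 for 0.

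Within the KPH2 group the tumours kept nearly the same order from gene to gene. KPH2 3 had the highest level for 9 genes and KPH2 2 for the remaining gene, Jph1. KPH2 2 and KPH2 3 both exceeded every KP tumour for 10 of 10 genes, as they did for 12.1% of all tested genes. KPH2 4 was the lowest of the 3 for 10 of 10 and exceeded every KP tumour for Ryr1, Ryr3, Cacna1s and Casq2 alone, which are the 4 genes whose groups did not overlap (8.73% of all tested genes were higher without overlap). KPH2 1 lay below every KP tumour for 6 genes (Ryr1, Ryr3, Cacna1s, Casq1, Casq2 and Trdn) and within the KP range for the other 4.

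Cacna1s encodes the pore and voltage-sensing subunit of the skeletal L-type calcium channel, the protein that senses depolarization of the T-tubule. It lies at chr1:136052806-136119822 on the plus strand of GRCm38.p6. KP 5, 6, 7 and 8 had 10.5, 11.5, 4.45 and 14.1 CPM, KPH2 2, 3 and 4 had 60.0, 69.0 and 20.3 CPM, and KPH2 1 had 4.24 CPM. All 3 tumours of the KPH2 group exceeded every KP tumour, and KPH2 1 lay just under the lowest of them, KP 7. The means were 10.1 ± 4.08 CPM (SD, n = 4) and 49.8 ± 25.9 CPM (SD, n = 3), a log2 fold change of 2.28 (SE 0.48, adjusted p = 0.0575, edgeR), whose p was the smallest among the 10.

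Ryr1 encodes the ryanodine receptor of skeletal muscle, the channel through which the store releases calcium (chr7:29003340-29125179, minus strand). KP 5, 6, 7 and 8 had 73.5, 36.1, 33.4 and 70.2 CPM, KPH2 2, 3 and 4 had 248.9, 419.6 and 102 CPM, and KPH2 1 had 28.1 CPM. The groups did not overlap without KPH2 1, which was lower than any other tumour. The KP mean was 53.3 ± 21.5 CPM (SD, n = 4) and that of KPH2 2 to 4 was 257 ± 159 CPM (SD, n = 3), giving a log2 fold change of 2.26 (SE 0.49, adjusted p = 0.0618, edgeR).

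Ryr3, a ryanodine receptor found in developing muscle and in other tissues (chr2:112631354-113217405, minus strand), was much less abundant. In KP 5, 6, 7 and 8 its level was 1.71, 3.40, 2.22 and 1.96 CPM, in KPH2 2, 3 and 4 it was 5.67, 6.40 and 4.06 CPM, and in KPH2 1 it was 1.52 CPM. Again the 3 KPH2 tumours exceeded the KP tumours and KPH2 1 was lowest, but KP 6 rather than KP 5 or KP 8 was the highest of its group. From 2.32 ± 0.746 CPM (SD, n = 4) to 5.38 ± 1.20 CPM (SD, n = 3), the log2 fold change was 1.23 (SE 0.33, adjusted p = 0.109, edgeR). Per kilobase of transcript, the mean KP level of Ryr3 was 0.150 CPM and that of Ryr1 3.47 CPM, and in KPH2 2 to 4 the means were 0.348 and 16.7 CPM.

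Casq1 and Casq2 encode calsequestrins, the calcium-binding proteins inside the store, Casq1 being the main form of fast fibres and Casq2 that of cardiac and slow muscle. Casq1 (chr1:172209894-172219895, minus strand) had levels of 9.88, 4.95, 5.19 and 4.53 CPM across KP 5, 6, 7 and 8, levels of 27.2, 42.8 and 8.57 CPM across KPH2 2, 3 and 4, and 4.40 CPM in KPH2 1. KP 5 exceeded KPH2 4, so that the groups overlapped. With 6.14 ± 2.51 CPM (SD, n = 4) against 26.2 ± 17.2 CPM (SD, n = 3), the log2 fold change was 2.08 (SE 0.52, adjusted p = 0.0877, edgeR).

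Casq2 (chr3:102086415-102146514, plus strand) had 2.97, 11.9, 2.22 and 4.60 CPM in KP 5, 6, 7 and 8, 42.8, 70.2 and 16.1 CPM in KPH2 2, 3 and 4, and 1.68 CPM in KPH2 1. KP 6 was the highest KP tumour, and all 3 KPH2 tumours lay above it. Means of 5.42 ± 4.42 CPM (SD, n = 4) and 43.1 ± 27.1 CPM (SD, n = 3) corresponded to a log2 fold change of 3.01 (SE 0.65, adjusted p = 0.0629, edgeR), the largest of the 10. Its highest tumour was at 41.9 times its lowest, also the widest range of the 9 genes with counts in every tumour.

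Trdn encodes triadin, which links calsequestrin to the ryanodine receptor (chr10:33083483-33476709, plus strand). Its levels were 8.47, 6.37, 5.19 and 9.36 CPM in KP 5, 6, 7 and 8, 28.2, 51.3 and 7.21 CPM in KPH2 2, 3 and 4, and 4.88 CPM in KPH2 1. KPH2 4 fell between the KP tumours, while KPH2 2 and 3 stood well above them. Against 7.34 ± 1.91 CPM (SD, n = 4) in KP, the 28.9 ± 22.1 CPM (SD, n = 3) in KPH2 2 to 4 gave a log2 fold change of 1.96 (SE 0.56, adjusted p = 0.123, edgeR).

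Jph1 encodes junctophilin 1, which tethers the store to the T-tubule (chr1:16942104-17097922, minus strand). It differed least of the 10 in the main comparison, but over all 8 tumours Ryr3 had a smaller log2 fold change (0.94 against 0.99). KP 5, 6, 7 and 8 had 8.02, 8.91, 6.23 and 3.24 CPM, KPH2 2, 3 and 4 had 20.5, 17.1 and 7.21 CPM and KPH2 1 had 7.27 CPM. KPH2 4 and KPH2 1 both lay inside the KP range. The means were 6.60 ± 2.50 CPM (SD, n = 4) and 14.9 ± 6.91 CPM (SD, n = 3), with a log2 fold change of 1.19 (SE 0.43, adjusted p = 0.201, edgeR).

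Atp2a1 encodes SERCA1, the calcium pump of fast fibres (chr7:126445858-126463103, minus strand). The KP tumours 5, 6, 7 and 8 had 106.8, 20.5, 41.5 and 75.6 CPM, KPH2 2, 3 and 4 had 222.4, 374 and 76.0 CPM, and KPH2 1 had 42.8 CPM. KP 5 exceeded KPH2 4, and the KP tumours alone differed by 5.21-fold between KP 5 and KP 6. From 61.1 ± 38.0 CPM (SD, n = 4) to 224 ± 149 CPM (SD, n = 3), the log2 fold change was 1.87 (SE 0.63, adjusted p = 0.179, edgeR). Per kilobase of transcript Atp2a1 was the most abundant of the 10 genes in both groups, with means of 17.6 CPM in KP and 64.5 CPM in KPH2 2 to 4.

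Sln encodes sarcolipin, a small membrane peptide that inhibits SERCA (chr9:53850251-53853849, plus strand), and was near the limit of detection. Its raw counts were 1, 7, 0 and 8 in KP 5, 6, 7 and 8, 20, 46 and 6 in KPH2 2, 3 and 4 and 3 in KPH2 1. Expressed as CPM these were 0.074, 0.990, 0 and 0.604 in KP tumours and 1.8, 4.60 and 0.676 in KPH2 2, 3 and 4. The count of 0 in KP 7 allows up to 0.424 counts per 1000000 of that library, where only counting error is covered. KPH2 4 fell within the KP range. The log2 fold change was 2.51 (SE 0.94, adjusted p = 0.215, edgeR), and over all 8 tumours Sln was removed by the low-count filter.

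Pvalb encodes parvalbumin, the cytosolic calcium buffer of fast fibres, and is expressed in certain neurons as well (chr15:78191112-78206400, minus strand). KP 5, 6, 7 and 8 had 17.1, 2.69, 4.74 and 7.62 CPM, KPH2 2, 3 and 4 had 27.3, 42.7 and 9.69 CPM and KPH2 1 had 5.59 CPM. KP 5 again exceeded KPH2 4. Mean levels of 8.03 ± 6.36 CPM (SD, n = 4) and 26.6 ± 16.5 CPM (SD, n = 3) gave a log2 fold change of 1.69 (SE 0.65, adjusted p = 0.227, edgeR), the largest adjusted p of the 10.

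Per kilobase of transcript, the order of the mean levels in KP tumours was Atp2a1 (17.6 CPM), Pvalb (8.22), Ryr1 (3.47), Casq1 (3.32), Casq2 (2.12), Trdn (1.63), Cacna1s (1.62), Jph1 (1.37), Sln (0.316) and Ryr3 (0.150). The ranges over single tumours of neighbouring genes in this order overlapped. In KPH2 2 to 4 the mean was 64.5 CPM per kilobase for Atp2a1, 27.2 for Pvalb, 16.9 for Casq2, 16.7 for Ryr1, 14.2 for Casq1, 7.97 for Cacna1s, 6.40 for Trdn, 3.11 for Jph1, 1.79 for Sln and 0.348 for Ryr3. Here too the ranges of neighbours overlapped, except for Sln (0.513 to 3.49 CPM per kilobase) and Ryr3 (0.262 to 0.414). By these means Casq2 stood below Ryr1 and Casq1 in KP tumours and beside Ryr1 in KPH2 2 to 4, although in single KP tumours the order varied. The place of Trdn depends on the transcript used, since its lengths run from 1182 to 4514 bases and the longest was taken.

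Reads from a gene and from an antisense neighbour cannot be told apart if strand was ignored, and the strand setting of the counting is not given in the sources used here. Exons of 6 of the 10 genes share bases with a gene on the opposite strand. The shared stretch was 1309 bases for Cacna1s (with Gm37759), 916 for Ryr3 (with Aven), 864 and 50 for Ryr1 (with Gm26604 and Gm44408), 763 for Atp2a1 (with Rabep2), 156 for Casq1 (with Gm17224) and 34 for Jph1 (with Gm28376). Casq2, Trdn, Pvalb and Sln had no such overlap.

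Among the KP tumours the genes fell into different orders. KP 5 was highest for Ryr1, Atp2a1, Casq1 and Pvalb, of which the last 3 are typical of mature fast fibres. KP 6 was highest for Ryr3, Casq2, Jph1 and Sln but lowest for Atp2a1 and Pvalb. KP 8 was highest for Cacna1s and Trdn, and KP 7 for none of the 10. Embryonic myosin (Myh3) and myogenin (Myog), named here after their values were seen, were also highest among KP tumours in KP 6, with 58.3 CPM of Myh3 against 0.445 to 5.87 in the other 3 and 14.4 CPM of Myog against 0.148 to 2.72. The adult fast myosin genes did not share 1 order, with Myh4 lowest in KP 6 (46.1 CPM against 170 to 296.5 in the other 3) and Myh1 and Myh2 lowest in KP 7 (17.8 and 2.97 CPM, against 53.8 and 7.22 in KP 6). In KPH2 2 to 4 Myh3 stood at 109 to 647 CPM, and in KPH2 1 at 1.28 CPM.

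Ratios between partners within a tumour do not depend on library scaling, and 5 were compared by 2-sided exact permutation tests that enumerate the 35 ways of splitting 7 tumours, in which p cannot go below 0.0286. The ratio of Casq2 to Casq1 was 0.301, 2.4, 0.429 and 1.02 in KP 5, 6, 7 and 8 and 1.58, 1.64 and 1.88 in KPH2 2, 3 and 4, with 0.382 in KPH2 1. The KPH2 tumours were close together and above 3 of the KP tumours, but below KP 6. The difference in mean log2 ratio was 1.15 (exact permutation p = 0.229, adjusted over the 5 ratios p = 0.381), and 0.63 with KPH2 1 included.

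For the pumps, the ratio of Atp2a2, which encodes the SERCA2 pump of slow fibres, heart and most other cells, to Atp2a1 was 3.50, 27.6, 15.3 and 7.53 in KP 5, 6, 7 and 8. It was 2.21, 1.21 and 5.62 in KPH2 2, 3 and 4 and 11.9 in KPH2 1. KP 5 lay below KPH2 4, so that the groups overlapped. The mean log2 ratio was 3.35 ± 1.28 (SD, n = 4) over KP 5 to 8 and 1.30 ± 1.11 (SD, n = 3) over KPH2 2 to 4, a difference of −2.05 (exact permutation p = 0.114, adjusted p = 0.381).

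The ratio of Ryr3 to Ryr1 was 0.0232, 0.0941, 0.0667 and 0.0280 in KP 5, 6, 7 and 8, 0.0228, 0.0153 and 0.0400 in KPH2 2, 3 and 4 and 0.0540 in KPH2 1. The groups overlapped, with KP 6 and KP 7 highest, and the difference in mean log2 ratio of −0.97 did not pass the test (exact permutation p = 0.229, adjusted p = 0.381). Sln to Atp2a1 differed by 0.26 on the log2 scale (exact permutation p = 0.914, adjusted p = 0.914). It rests on the low counts of Sln and was 1.02 with a prior count of 0.5 in place of 2. Parvalbumin kept closest to the pump. The ratio of Pvalb to Atp2a1 lay between 0.101 and 0.160 in all 8 tumours, a range of 1.59-fold, while Atp2a1 itself ranged 18.2-fold and Pvalb 15.9-fold. The difference between groups was −0.07 on the log2 scale, from means of −2.96 ± 0.28 (SD, n = 4) over KP 5 to 8 and −3.03 ± 0.09 (SD, n = 3) over KPH2 2 to 4 (exact permutation p = 0.686, adjusted p = 0.857).

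**Figure D2:**
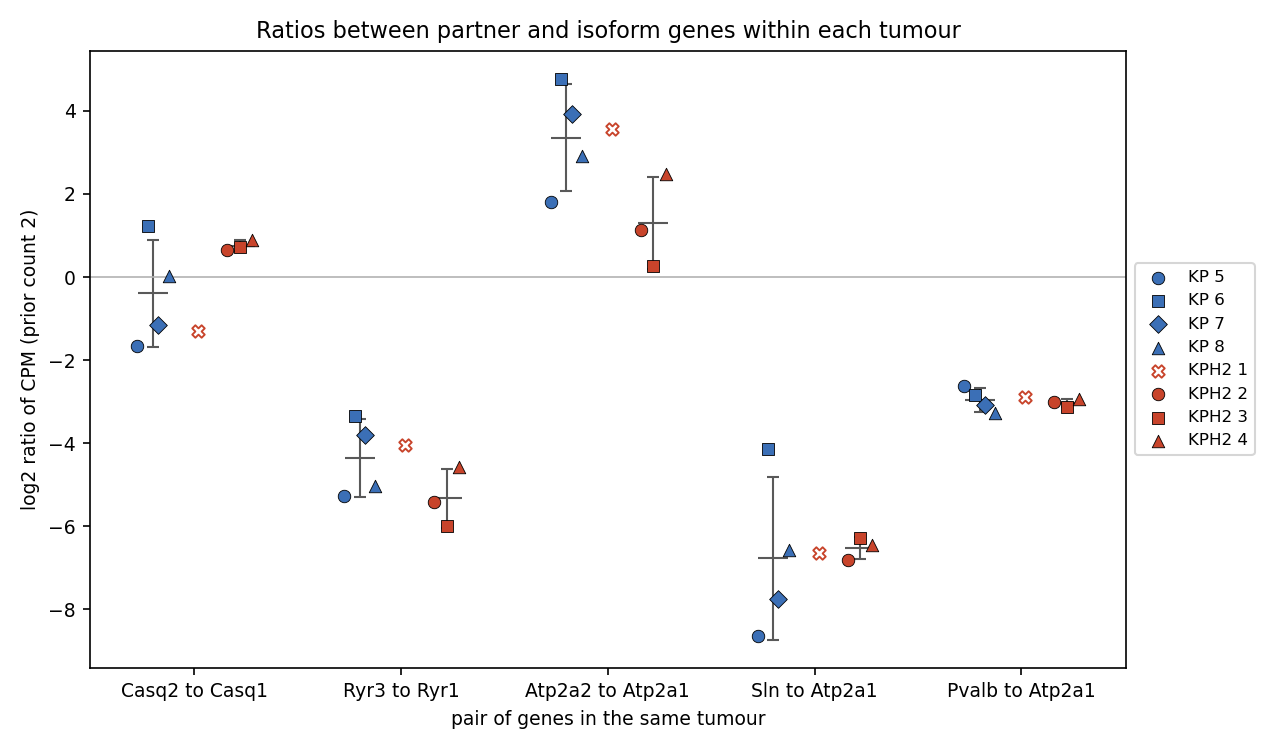
Log2 ratio of CPM (prior count 2) of 5 gene pairs in each tumour, with the mean and SD of KP 5 to 8 (blue, n = 4) and KPH2 2 to 4 (filled red, n = 3), and KPH2 1 as an open red cross. The groups overlap for every pair, the KP values of Casq2 to Casq1 spread from −1.67 to 1.23 with KP 6 highest, and those of Pvalb to Atp2a1 spread least.

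The rest of the coupling machinery was read from lists of 32 further genes, of which 29 were tested. In KPH2 2 to 4 against KP tumours 21 had a positive and 8 a negative log2 fold change, with a median of 0.35 beside 2.02 for the 10 genes above. An unadjusted p under 0.05 was reached by 9 in the positive direction and by Asph and Mtm1 in the other (log2 fold changes −0.51 and −0.67), where 8.5% of all genes reached it in the positive and 17.8% in either direction. None of the 29 passed the adjusted p in edgeR, and 6 did as higher in DESeq2's Wald test, which called 3.77% of genes as higher. Without KPH2 4 there were 6 that passed (Cacng1, Cav3, Hrc, Srl, Sypl2 and Tmem38a), where 0.807% of all genes passed as higher, and without KP 5 only Mtm1 passed, on the lower side, where 1.14% of all genes passed as lower.

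The partners of the voltage sensor had positive log2 fold changes in 4 of 4 and an unadjusted p under 0.05 in 3. Cacng1, the γ subunit of the skeletal channel, had a KP mean of 3.08 ± 0.582 CPM (SD, n = 4) and a mean of 12.5 ± 7.59 CPM (SD, n = 3) in KPH2 2 to 4, without overlap (log2 fold change 2.01, adjusted p = 0.0646, edgeR). Cacnb1, its β subunit, had a log2 fold change of 0.94 (adjusted p = 0.212, edgeR) with overlapping groups.

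Among the 14 genes of the release channel, its regulators and the store proteins, 10 were positive, 4 with an unadjusted p under 0.05, and 4 were negative. Srl, which encodes the store protein sarcalumenin, had a level of 20.3, 35.4, 17.6 and 26.2 CPM across KP 5, 6, 7 and 8, of 112.5, 179.6 and 42.7 CPM across KPH2 2, 3 and 4, and of 15.7 CPM in KPH2 1. The groups did not overlap without KPH2 1, with a log2 fold change of 2.16 (SE 0.45, adjusted p = 0.0575, edgeR). Hrc, the histidine-rich calcium-binding protein of the store, also did not overlap (log2 fold change 2.57, adjusted p = 0.0645, edgeR).

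For the junction and T-tubule, 6 of 8 genes were tested and 5 were positive. Cav3, the muscle caveolin, had a KP mean of 1.58 ± 0.665 CPM (SD, n = 4) and a mean of 10.9 ± 7.42 CPM (SD, n = 3) in KPH2 2 to 4 (log2 fold change 2.83, adjusted p = 0.0618, edgeR) with no overlap. Sypl2, which encodes mitsugumin 29, had a log2 fold change of 1.6 (adjusted p = 0.168, edgeR). Jph3 and Jph4, the junctophilins of neurons, were removed by the low-count filter.

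Of the 6 other genes of reuptake and refilling, Mrln (2310015B20Rik in the table) was too low to be tested. Of the other 5, 2 had a positive and 3 a negative log2 fold change, the median was −0.22, and 0 had an unadjusted p under 0.05. Atp2a2 had 374, 565.8, 635 and 569 CPM in KP 5, 6, 7 and 8, 490.7, 453 and 427 CPM in KPH2 2, 3 and 4 and 510.4 CPM in KPH2 1. All KPH2 tumours lay within the KP range (log2 fold change −0.23, SE 0.20, adjusted p = 0.595, edgeR). Per kilobase of transcript its mean was 94.5 CPM in KP, against 17.6 CPM for Atp2a1. Atp2a3, the SERCA3 pump of blood and epithelial cells, had a log2 fold change of −0.35 (adjusted p = 0.627, edgeR).

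**Figure D3:**
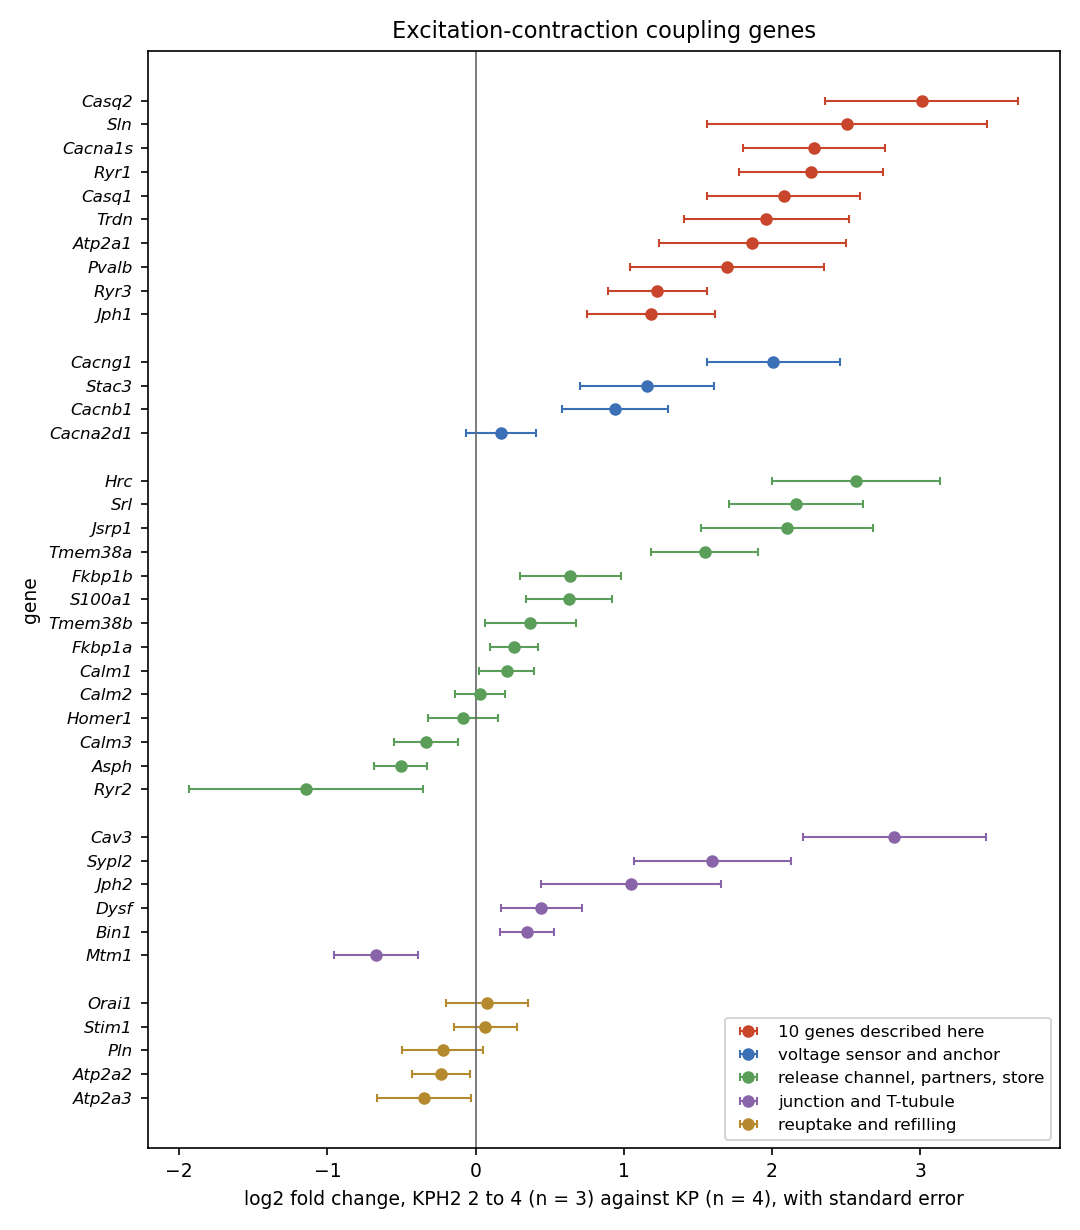
Log2 fold change of KPH2 2 to 4 (n = 3) against KP 5 to 8 (n = 4) with its standard error from edgeR, for the 10 genes described (red) and the 29 other coupling genes tested, by list. The 10 genes lie between 1.19 and 3.01, and Atp2a2, Atp2a3 and Pln of the reuptake list lie on the negative side.

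These are whole sections of tumours grown in muscle. A difference in the number of muscle cells, in RNA per muscle cell or in expression by the tumour cells themselves therefore cannot be told apart. The labelled tissue was therefore read beside marker lists of the cells it could hold. All 15 fast fibre contractile genes (such as Acta1, Ckm and the fast myosins) had a positive log2 fold change and an unadjusted p under 0.05, with a median of 2.12, and Neb passed the adjusted p. Of all genes tested, 8.5% had an unadjusted p under 0.05 as higher and 1.24% passed the adjusted p as higher, for this and the next lists. The summed level of the fast fibre list ran from 1725 to 3085 CPM in KP tumours and from 3950 to 18085 CPM in KPH2 2 to 4, and was 1394 CPM in KPH2 1. Ttn alone made up most of this sum in every tumour, at 1206 to 2011, 2798 to 12598 and 939 CPM in that order. The summed level of the 10 calcium handling genes ran from 105 to 239 CPM, from 251 to 1098 CPM and at 101 CPM in the same order. Slow fibre contractile genes were positive in 7 of 7 tested, 4 with an unadjusted p under 0.05 and Myoz2 past the adjusted p, with sums of 4.89 to 33.8 CPM in KP, 50.7 to 221 CPM in KPH2 2 to 4 and 2.72 CPM in KPH2 1. Satellite cell and myoblast genes were positive in 6 of 6 tested, all with an unadjusted p under 0.05 and Myf5 past the adjusted p, with sums of 1.19 to 104 CPM, 175 to 962 CPM and 2.80 CPM. Embryonic myosin (Myh3) made up most of the sums in KPH2 2, 3 and 4, at 401, 647 and 109 CPM. Pax7 was not tested, with 0 to 2.69 CPM in KP tumours and 0.36, 4.10 and 0.23 CPM in KPH2 2, 3 and 4. How far the cells of these lists set the levels of the calcium handling genes was not tested.

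Markers of other cells gave mixed or negative log2 fold changes, and no listed marker was at 0 in every tumour. Cardiac genes were positive in 0 of 3 tested and summed to at most 15.7 CPM in any tumour. Smooth muscle genes were positive in 2 of 5, with Cnn1 past the adjusted p on the lower side and sums of 54.6 to 125 CPM in KP and 61.4 to 96.5 CPM in KPH2 2 to 4. Macrophage (4 tested), endothelial (4), fibroblast (6) and adipocyte genes (1) were all negative, as were 52.0% of all genes tested, and Pdgfra of the fibroblast list passed the adjusted p (log2 fold change −2.02, adjusted p = 0.0183, edgeR), as did 0.72% of all genes on the lower side. Summed levels in KP and in KPH2 2 to 4 were 1014 to 1991 and 601 to 1077 CPM for macrophage genes, 212 to 406 and 184 to 209 CPM for endothelial genes, 9276 to 15272 and 6390 to 12186 CPM for fibroblast genes, and 4.08 to 21.8 and 3.87 to 4.62 CPM for adipocyte genes. Their part in the results above was not tested.

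Set against the fast fibre list tumour by tumour, the 10 genes had a mean log2 CPM of 3.06, 2.86, 2.27 and 2.95 in KP 5, 6, 7 and 8, 4.94, 5.51 and 3.54 in KPH2 2, 3 and 4 and 2.28 in KPH2 1. The fast fibre list had 5.90, 4.33, 4.68 and 5.58, then 7.48, 8.21 and 5.81, then 4.65 in the same order. The difference between KPH2 2 to 4 and KP means was 1.88 for the 10 genes and 2.04 for the contractile list. KPH2 4 lay slightly below KP 5 on the contractile list and above it on the 10 genes. Relative to the contractile list the difference between groups was within 0.3 on the log2 scale for Ryr1 (0.09), Cacna1s (0.17), Sln (0.07), Casq1 (−0.19), Atp2a1 (−0.20) and Pvalb (−0.27). It was 0.96 for Casq2, and −0.45 for Trdn, −0.88 for Ryr3 and −0.92 for Jph1. Among KP tumours the SD was larger in size than each of these, at 1.52, 0.48, 1.11 and 1.14 in the same order. The groups overlapped for all of them. For Sln, with its low counts, that SD was 1.62.

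**Figure D4:**
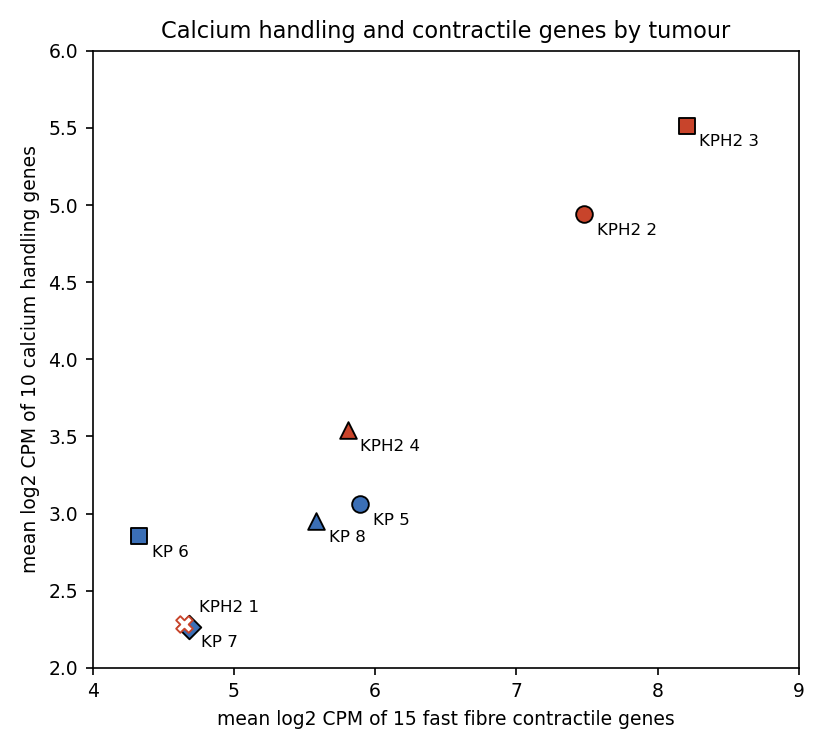
Mean log2 CPM of the 10 calcium handling genes (vertical) against that of 15 fast fibre contractile genes (horizontal), 1 point per tumour, KP in blue, KPH2 2 to 4 in filled red and KPH2 1 as an open red cross. KPH2 3 (8.21 and 5.51) and KPH2 2 (7.48 and 4.94) stand apart at the upper right, and KPH2 1 lies beside KP 7 at the lower left.

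The genes most like this group across all 8 tumours were contractile genes. By Pearson correlation of log2 CPM with the mean standardized level of 9 of the 10 genes (Sln was removed by the low-count filter), over 14796 other genes, the first 5 were Ttn (0.992), Myl1 (0.990), Neb (0.989), Mypn (0.988) and Actn3 (0.987). These correlations are over 8 tumours that include both groups. Each of the 10 genes against the mean of the other 9 gave a correlation between 0.755 (Jph1) and 0.981 (Ryr1).

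With KPH2 1 included, 9 of the 10 genes were tested and all 9 kept a positive log2 fold change, from 0.94 (Ryr3) to 2.61 (Casq2), with a median of 1.63. An unadjusted p under 0.05 was reached by 5 of them (Ryr1, Cacna1s, Casq1, Casq2 and Trdn), where 6.65% of all genes reached it in that direction. None passed the adjusted p in edgeR (0.276 to 0.412), and 0.00675% of all genes did. Because KPH2 1 lay below or within the KP range for every one of the 10, none was free of overlap over the 8 tumours, where 3.76% of all tested genes were higher in KPH2 tumours without overlap.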

How the data were processed

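Stranded libraries depleted of ribosomal RNA were made from sections of 8 fixed, paraffin-embedded tumours. The authors aligned the reads with STAR 2.4 (GRCm38) and counted uniquely aligned reads in each gene with HTSeq 0.6.1, and the deposited table holds these raw counts. A further deposited table holds log2 values that the authors made by the regularized log transformation of DESeq2 1.6 for 7 tumours, used here in 1 alternative, and a similar table for 8 that was not used.

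The tests were run with edgeR 4.0.16 under R 4.3.3 (TMM, low-count filter with minimum count 10 and minimum total 15, robust quasi-likelihood test, no covariates), and p-values were adjusted over all tested genes by Benjamini-Hochberg at a threshold of 0.05. The standard error is the log2 fold change divided by the root of F. CPM used TMM factors over all 8 tumours, and log2 CPM a prior count of 2. Ratios were compared by exact permutation tests. The scripts were tested on simulated data. P-values measure the spread between tumours, each taken from the labels as a separate sample. Levels per kilobase used the longest transcript paired with RefSeq, and positions and promoters came from RefSeq on GRCm38.p6. Older symbols were matched through RefSeq synonyms.

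Alternatives were all 8 tumours, DESeq2 size factors, no filter, a mean count of at least 50, edgeR without robust estimates, DESeq2 1.42.0, limma 3.58.1 on the log2 values, and each tumour left out, and for ratios a prior count of 0.5. The 10 genes and all lists were chosen with earlier results of these data known. Named beyond the 10 were Epas1, the 2 genes of smallest p in each of the 4 other coupling lists (no gene of which passed), the 5 genes most like the 10, and genes said to be singled out after their values were seen or that make up a count of calls. A further allele that both groups share and 1 marker list are not reported here.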

Additional observations from a re-analysis of the deposited data

Results flagged for a closer look

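Of 32 groups of 4 tumours examined (values of single genes and of ratios), 2 held a tumour whose gap to the nearest of the others, divided by the range of the group, was above Dixon's 95% critical value. Chance gives about 1 in 20 such groups. The log2 ratio of Casq2 to Casq1 was −1.29 in KPH2 1, against 0.65 to 0.90 in KPH2 2, 3 and 4 (gap over range 0.889). Among KP tumours, the log2 CPM of Epas1 was 5.89 in KP 5, against 6.38 to 6.44 in KP 6, 7 and 8 (gap over range 0.887).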

How the results depend on the processing

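All 10 genes kept a positive log2 fold change under every alternative in which they were tested, and their median ran from 1.41 to 2.46 with single tumours left out. On the authors' rlog values, which shrink low counts, it was 1.06. The number of the 10 past the adjusted p was 0 as reported, 1 with edgeR without robust estimates (Cacna1s, where 311 of all genes passed, 196 of them higher), 1 with limma on rlog values (Casq2, where 328 passed, 223 higher), 7 with DESeq2, and 0 to 4 with a tumour left out. The other coupling genes past it were 1 without a filter (Cacng1, where 338 of all genes passed, 215 higher), 1 without robust estimates (Srl), 6 with DESeq2 and 0 to 6 with a tumour left out. Over all genes, 292 passed (185 higher, 107 lower), 1175 with DESeq2 (615 higher, 560 lower), 55 to 349 with a tumour left out (43 to 183 higher, 12 to 166 lower), and over all 8 tumours 1 (Dmp1), with 1 higher and 0 lower, where 2172 genes had an unadjusted p under 0.05. The log2 fold change of Epas1 was −0.81 with DESeq2 (adjusted p = 0.0115) and ran from −0.96 to −0.71 with a tumour left out, past the threshold without KP 5 (adjusted p = 0.0442, edgeR). With a tumour left out, the differences in log2 ratio ran from −2.65 to −1.54 for Atp2a2 to Atp2a1, 0.72 to 1.69 for Casq2 to Casq1, −1.34 to −0.63 for Ryr3 to Ryr1, −0.18 to 0.038 for Pvalb to Atp2a1 and −0.36 to 1.14 for Sln to Atp2a1. The last of these changed sign without KP 5 (−0.36) and without KP 7 (−0.06), and Pvalb to Atp2a1 without KP 5 (0.038). Over all 8 tumours the differences were −1.49 for Atp2a2 to Atp2a1, 0.63 for Casq2 to Casq1 and −0.65 for Ryr3 to Ryr1, and with a prior count of 0.5 that of Sln to Atp2a1 was 1.02. The cause of these shifts was not tested. Among the 10 genes depth limits Sln most, with 0 to 46 counts per tumour. No paired analysis was possible because nothing in the labels pairs a KP with a KPH2 tumour.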
